A study of Mus musculus with 8 samples.

Results

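Cathepsins and legumain are the main proteases of the lysosome. The set described here holds 10 genes, Ctsa, Ctsb, Ctsc, Ctsd, Ctsh, Ctsk, Ctsl, Ctss, Ctsz and Lgmn, which were taken by symbol from the deposited count table. They are 10 of the 31894 genes of the table, and all 10 were among the 13598 genes with enough counts to be tested.

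These enzymes are made as inactive precursors, are carried to the lysosome largely by mannose 6-phosphate receptors, and become active at its acidic pH, where they degrade proteins delivered by endocytosis and autophagy. Legumain, which cuts after asparagine, also processes several cathepsins to their mature forms. Some cathepsins are secreted by tumor cells and by macrophages and can cleave matrix and adhesion proteins, and in the brain cathepsin S is known as a protease of microglia, the resident macrophages.

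The libraries came from breast cancer brain metastases (BCBM) of 4 mice, numbered 57, 58, 67 and 70 in the labels, which give the strain as FVB and the genotype as wild type and state no age. The tumor cells of all libraries descended from PyMT E-cad-mCFP mammary tumors, in which E-cadherin is fused to the fluorescent protein mCFP, had been passed serially through the brain and grown as organoids, and carried the nuclear label H2B-Dendra2. Live Dendra2-positive cells with low tdTomato, the color that marks host cells in mTmG mice, were sorted into CFP-positive (E-cadHI) and CFP-negative (E-cadLO) cells, and 1 bulk mRNA library was made from each population of each mouse, 8 in all and 4 per group. The purity of the sort was checked on the CFP-positive cells only, and in bulk RNA more cells of a type and more RNA per cell cannot be told apart.

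The libraries held 9102781 to 15769200 counts in genes, so that 3 counts, taken as the floor, stood for 0.190 to 0.330 CPM, the count scaled to the library's total. Cdh1, which encodes E-cadherin, was at 93.5 to 132 CPM in E-cadHI and 59.2 to 181.5 CPM in E-cadLO libraries, and its level was lower in E-cadLO in 3 of 4 mice (log2 fold change of E-cadLO over E-cadHI -0.17, standard error 0.33, edgeR adjusted p = 0.809). All 10 epithelial markers of the tumor cells were detected in every library, with summed levels of 7455 to 10100 CPM in E-cadHI and 5581 to 14410 CPM in E-cadLO. Libraries stood apart in several ways: the E-cadLO library of mouse 57 had 1659 CPM of 10 fibroblast markers against 8.03 to 51.7 CPM in the others, and 14.4% of the counts of the E-cadLO library of mouse 58 were of the noncoding RNA Gm42418. Both libraries of mouse 70 were highest in myelin genes, with a summed level of 8653 CPM of 10 oligodendrocyte markers in E-cadHI and 34680 CPM in E-cadLO cells.

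Of the 10 proteases, Ctss and Lgmn were higher in E-cadLO than in E-cadHI cells in each of the 4 mice, on average by 1.76 ± 0.66 and 1.12 ± 0.36 on the log2 scale (SD, n = 4 mice), and the low-count gene Ctsk was higher as well. Ctsh was lower in E-cadLO cells in each mouse, by amounts that ran from a log2 ratio of -0.15 to -2.31. The other 6 genes, among them the abundant Ctsd, Ctsz and Ctsb, were higher in some mice and lower in others. For all 10 genes the ranges of the E-cadHI and E-cadLO libraries overlapped.

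Without regard to the mouse, 0 of the 10 genes passed an adjusted p of 0.05 (edgeR's quasi-likelihood test, p-values adjusted by Benjamini-Hochberg over all genes tested), as did 0% of all genes. At an unadjusted p under 0.05 in that fit, 1 of the 10 was higher in E-cadLO cells (Lgmn), against 8.16% of all genes, and 1 was lower (Ctsh), against 5.81%. DESeq2 without the mouse also passed 0 of the 10, while over the 30100 genes it fitted 376 passed as higher and 40 as lower. When the mouse was added as a replicate block, the 2 populations of each animal were compared with each other. In that fit 2 of the 10 genes passed as higher, Ctss and Lgmn, against 0.728% of all genes, and 0 passed as lower, against 0% of all genes (Ctsh was lower at an unadjusted p of 0.031, as were 997 of all genes under 0.05). Counted by sign alone, 3 of 10 were higher in 4 of 4 mice (Ctss, Ctsk and Lgmn), where 16.8% of all genes were, and 1 of 10 was lower in 4 of 4 mice (Ctsh), where 14.2% of all genes were.

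**Figure D1:**
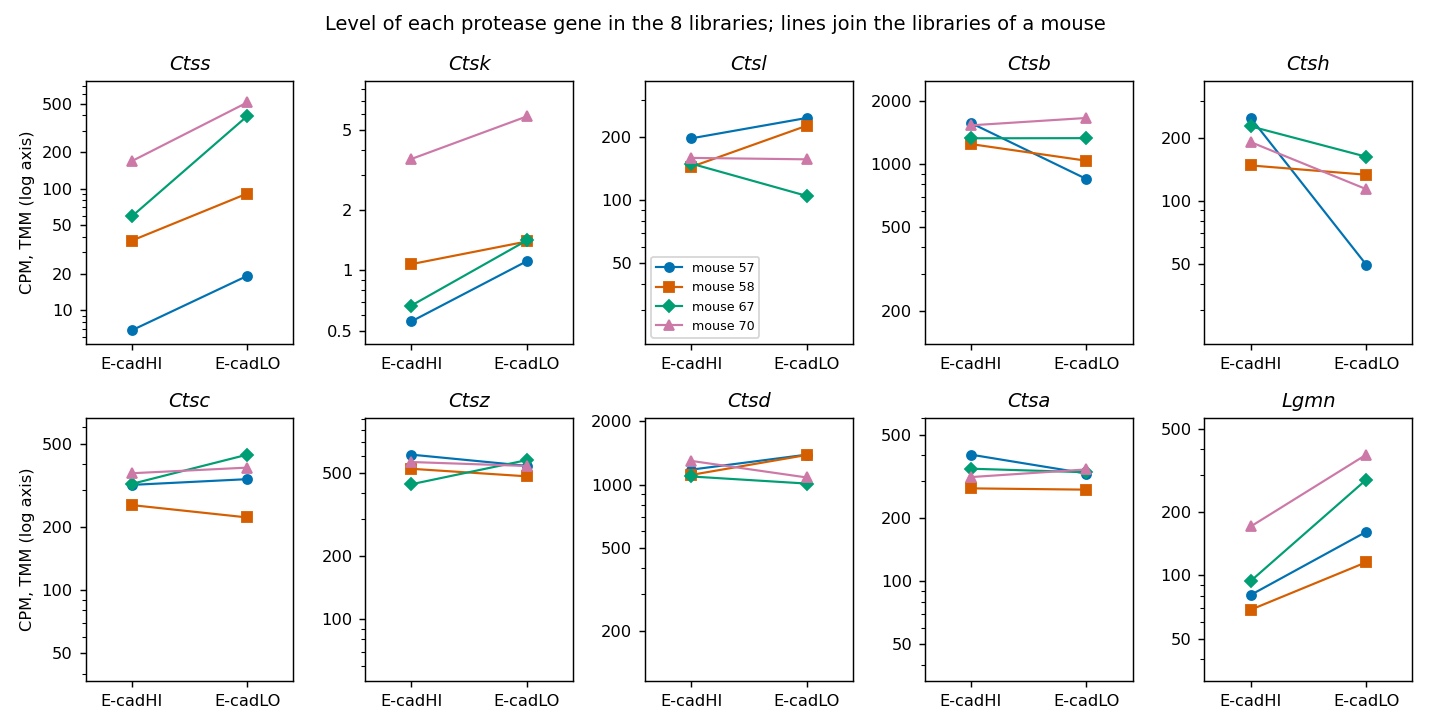
Level of each of the 10 genes in CPM after TMM scaling (log axis), with E-cadHI at the left, E-cadLO at the right and a line for each mouse. The lines of Ctss and Lgmn climb in all 4 mice while the mice lie far apart, Ctsh descends in all 4, and the lines of the remaining genes other than Ctsk cross or run flat.

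The promoters of the genes that passed with the block are shown first, with that of Ctsd, the gene with the highest level per length. The windows reach from 250 bases before to 50 bases after the start of a RefSeq transcript (build GRCm38.p6) and are written 5′ to 3′ on the gene's strand. Capitals mark CACGTG, the E-box bound by the TFEB family of lysosomal regulators, and GAGGAAGT, a motif of the myeloid factor PU.1, each searched on both strands, so that the latter also appears as ACTTCCTC. The Ctss window is chr3:95526536-95526835 (plus strand), those of Lgmn are chr12:102439043-102439342 and chr12:102439679-102439978 (minus strand), and that of Ctsd is chr7:142387778-142388077 (minus strand).
Ctss: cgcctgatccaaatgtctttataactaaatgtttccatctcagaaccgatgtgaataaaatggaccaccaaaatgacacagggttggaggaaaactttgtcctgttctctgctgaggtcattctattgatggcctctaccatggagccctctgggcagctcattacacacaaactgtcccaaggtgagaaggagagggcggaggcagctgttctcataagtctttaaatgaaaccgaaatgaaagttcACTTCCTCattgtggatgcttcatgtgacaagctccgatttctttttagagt
Lgmn, window at 102439043: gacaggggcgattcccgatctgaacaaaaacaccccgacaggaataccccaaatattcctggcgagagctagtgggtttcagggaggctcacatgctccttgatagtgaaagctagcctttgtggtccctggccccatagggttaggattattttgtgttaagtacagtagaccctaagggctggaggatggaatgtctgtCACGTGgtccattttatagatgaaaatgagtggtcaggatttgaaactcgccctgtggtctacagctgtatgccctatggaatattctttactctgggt
Lgmn, window at 102439679: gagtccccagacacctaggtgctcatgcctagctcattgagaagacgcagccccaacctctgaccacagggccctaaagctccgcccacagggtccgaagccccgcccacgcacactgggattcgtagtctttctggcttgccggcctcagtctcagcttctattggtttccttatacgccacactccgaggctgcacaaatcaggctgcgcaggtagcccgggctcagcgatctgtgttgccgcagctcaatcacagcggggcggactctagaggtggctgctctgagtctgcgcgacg
Ctsd: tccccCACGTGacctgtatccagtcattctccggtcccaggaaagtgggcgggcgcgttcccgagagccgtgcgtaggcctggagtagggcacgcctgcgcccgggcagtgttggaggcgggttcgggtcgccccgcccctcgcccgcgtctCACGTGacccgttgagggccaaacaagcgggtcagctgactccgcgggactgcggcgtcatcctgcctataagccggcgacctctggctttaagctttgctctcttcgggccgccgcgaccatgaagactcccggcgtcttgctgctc

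The Ctss window held GAGGAAGT at its start site and no CACGTG. The Ctsd window held CACGTG at 245 and 98 bases before the start, and of the Lgmn windows the first held it at 49 bases before the start and the second lacked both motifs. The second Lgmn window covered the 5′ end of the gene as counted (102439813), and the first lay inside the gene. For Ctsa too, the window at the start of the gene lacked CACGTG, and one inside the gene held it. The Ctsl window (chr13:64370471-64370770, minus strand) lay wholly upstream of the gene as counted, whose 5′ end is at 64370306. Of the windows with CACGTG, only that of Ctsd covered the start of the gene as counted. Windows were found for 8 of the 10 genes, 10 windows in all, which leaves Ctsb and Ctsh without one. CACGTG was in 4 of the 10 windows (of Ctsa, Ctsd, Ctsl and Lgmn) against 7.15% of the 32851 windows of all genes, GAGGAAGT in 2 (of Ctsc and Ctss) against 3.2%, and the GC box GGGCGG, which is not capitalized, in 5 (of Ctsc, Ctsd, Ctss, Ctsz and Lgmn) against 35.7%. The motifs do not overlap in the windows printed, and a match describes letters, not binding. The genes with CACGTG did not share a direction: Lgmn was higher in E-cadLO cells in 4 of 4 mice, while Ctsd and Ctsl were higher in 2 of 4 mice and Ctsa in 1.

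Ctss encodes cathepsin S, an endopeptidase that trims the invariant chain of MHC class II in antigen-presenting cells and keeps its activity at neutral pH. The gene (ENSMUSG00000038642) lies at chromosome 3, 95526786 to 95556403, on the plus strand and next to Ctsk, and its interval holds the pseudogene Hmgb1-ps5. Its level was 6.83, 37.3, 59.0 and 168 CPM in the E-cadHI libraries of mice 57, 58, 67 and 70, and 19.2, 91.1, 395 and 511 CPM in their E-cadLO libraries. The order of the mice was the same in both populations, and the E-cadLO level of mouse 57 lay below the E-cadHI level of the other 3 mice. The highest mouse was 24.6 times the lowest in E-cadHI and 26.7 times in E-cadLO cells, more than the difference between the populations of any mouse. Within a mouse, the E-cadLO level was 2.68, 2.42, 6.65 and 3.03 times the E-cadHI level (log2 ratios 1.42, 1.28, 2.73 and 1.60).

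Without the block, the log2 fold change of Ctss was 1.91 and did not pass (standard error 1.04, edgeR adjusted p = 0.425). That fit counts the spread between mice as residual spread. With the replicate block, Ctss rose in E-cadLO cells, by 1.78 on the log2 scale (standard error 0.26, edgeR adjusted p = 0.0339), rank 65 by p of the 13598 genes. This call rested on the mice used: without mouse 58, 67 or 70 the blocked edgeR adjusted p was 0.058, 0.247 and 0.166 with log2 fold changes of 1.97, 1.47 and 1.86, and without mouse 57 it was 0.0054 with 1.85. Over all genes, the number passing as higher in these blocked fits was 63, 0 and 2 without mouse 58, 67 or 70 and 425 without mouse 57, against 99 with all mice.

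Most microglia and macrophage markers differed between the populations in the same direction as Ctss. Of 20 such markers, 16 were higher in E-cadLO cells in 4 of 4 mice, and 4 passed with the replicate block (Itgam, Cx3cr1, P2ry12 and Cd68). No marker was at 0 in every library, but Adgre1, Fcrls, Mrc1 and Siglech had no count in the E-cadHI library of mouse 57, Mrc1 had none in the E-cadHI library of mouse 67 and the E-cadLO library of mouse 58, and Ptprc, which marks all leukocytes, had none in the E-cadLO library of mouse 57. The summed level of the 20 was 520 to 1285 CPM in E-cadHI and 387 to 1489 CPM in E-cadLO libraries. Cd14 made up most of it in the E-cadHI libraries and in the E-cadLO library of mouse 58, and was lower in E-cadLO cells in 4 of 4 mice. Without Cd14, a choice made after its values were seen, the sum was 16.9, 73.4, 103 and 272 CPM in E-cadHI and 243, 206.5, 773.5 and 980 CPM in E-cadLO cells of mice 57, 58, 67 and 70. The E-cadLO library of mouse 57 did not share the order of Ctss: its marker sum lay above those of the E-cadHI libraries of mice 58 and 67 and the E-cadLO library of mouse 58, and its Ctss level below all of these. Itgam alone was at 117 CPM in that library, the highest Itgam level of any library. The order of the sums without Itgam was not examined. The part of these cells in the Ctss difference was not tested.

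The 5 genes whose level followed Ctss most closely over the 8 libraries were Pld4, Ncf4, Aif1, Fcer1g and Tyrobp, with Pearson correlations on the log2 scale of 0.996, 0.985, 0.985, 0.983 and 0.983. The points share mice and libraries, and no p is given. All 5 are known from myeloid cells, Aif1 as the microglial marker IBA1 and Tyrobp and Fcer1g as adaptors of immune receptors. Pld4, an endolysosomal nuclease, was at 1.11, 5.07, 8.25 and 21.9 CPM in E-cadHI and 3.42, 15.8, 53.7 and 73.9 CPM in E-cadLO cells. Among the proteases themselves, Lgmn (0.79) and Ctsk (0.76) had the highest correlations with Ctss, and Ctsl the lowest (-0.59).

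**Figure D2:**
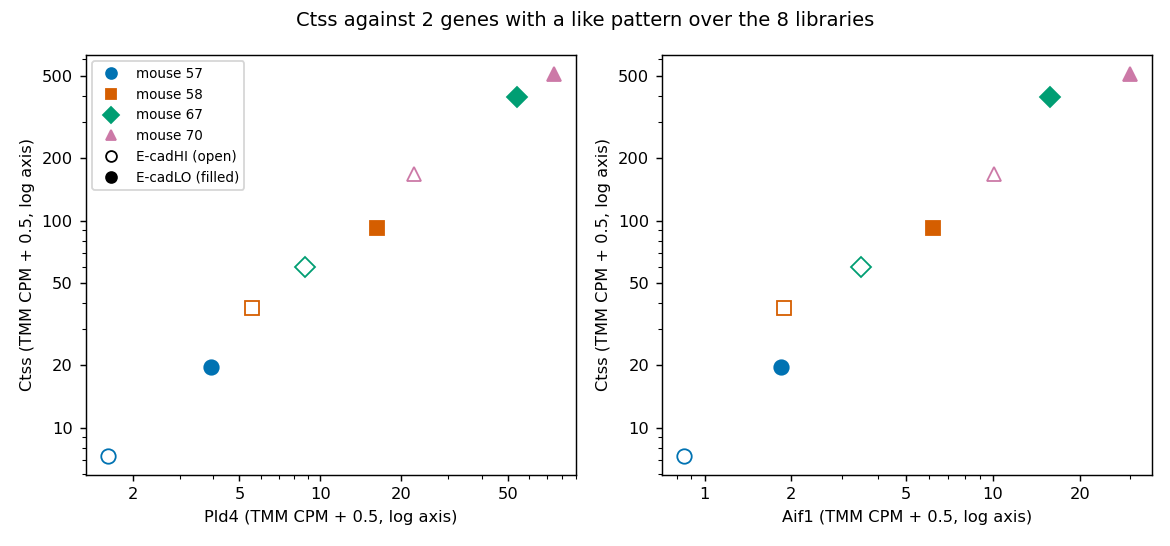
Ctss level against the level of Pld4 (left) and Aif1 (right) in the 8 libraries, both axes in CPM plus 0.5 on log scales, with open symbols for E-cadHI, filled for E-cadLO and a shape for each mouse. The points lie along a line that runs from the E-cadHI library of mouse 57 to the E-cadLO library of mouse 70, and libraries of both populations are interleaved along it.

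Lgmn (ENSMUSG00000021190; chromosome 12, 102394084 to 102439813, minus strand) encodes legumain, the asparaginyl endopeptidase, and overlaps no other annotated gene. It was at 80.7, 68.6, 94.1 and 171 CPM in the E-cadHI libraries of mice 57, 58, 67 and 70, and at 161.5, 116, 286 and 377 CPM in their E-cadLO libraries. Each E-cadLO level exceeded that of the same mouse's E-cadHI cells, and only the E-cadHI library of mouse 70 reached into the E-cadLO range. The E-cadLO level was 2.0, 1.68, 3.03 and 2.20 times the E-cadHI level, with the largest ratio in mouse 67, as for Ctss.

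The log2 fold change of Lgmn was 1.18 without the block (standard error 0.41, edgeR adjusted p = 0.301, unadjusted p = 0.0171), and in the fit with the replicate block Lgmn rose by 1.12 (standard error 0.18, edgeR adjusted p = 0.046, rank 94 of 13598). As for Ctss, the call was lost without mouse 58, 67 or 70, where the blocked edgeR adjusted p was 0.074, 0.34 and 0.199 (log2 fold changes 1.26, 0.98 and 1.13), and was kept without mouse 57 (0.0101, log2 fold change 1.14). Of the microglia and macrophage markers given for Ctss, 16 of 20 were likewise higher in E-cadLO cells in 4 of 4 mice, and their part in the Lgmn difference was not tested.

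Ctsk, at chromosome 3, 95499256 to 95509362, encodes cathepsin K, the collagen-degrading endopeptidase of osteoclasts. It had 8, 14, 9 and 41 counts in the E-cadHI libraries of mice 57, 58, 67 and 70 and 15, 12, 21 and 84 in the E-cadLO libraries, or 0.558, 1.08, 0.669 and 3.60 CPM against 1.11, 1.4, 1.41 and 5.87 CPM. Both libraries of mouse 70 lay above all others, and the E-cadHI level of that mouse exceeded the E-cadLO level of the other 3. The within-mouse log2 ratios of 0.61, 0.27, 0.71 and 0.64 shared a sign, but the log2 fold change of 0.74 (standard error 0.81) did not pass (edgeR adjusted p = 0.659). Counts this low limit what could be detected.

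Ctsl, at chromosome 13, 64363214 to 64370306, encodes cathepsin L, a broad endopeptidase of the lysosome. Its level was 197, 144, 150 and 159 CPM in E-cadHI and 247, 227, 105 and 157 CPM in E-cadLO cells of mice 57, 58, 67 and 70. It was higher in E-cadLO cells in mice 57 and 58, lower in mouse 67 and nearly level in mouse 70. The log2 fold change was 0.18 (standard error 0.26, edgeR adjusted p = 0.749).

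The exopeptidases Ctsb, Ctsc, Ctsh and Ctsz remove amino acids or dipeptides from the ends of proteins. Ctsh (ENSMUSG00000032359; chromosome 9, 90054152 to 90076089, no overlapping gene) encodes cathepsin H, the aminopeptidase of the family, which also processes surfactant proteins in the lung. It was at 248, 147, 226 and 190.5 CPM in E-cadHI and 49.6, 133, 162 and 114 CPM in E-cadLO cells of mice 57, 58, 67 and 70. The E-cadLO library of mouse 57 had the lowest level of the 8 libraries, and of the E-cadLO libraries only that of mouse 67 lay within the E-cadHI range.

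The within-mouse log2 ratios of Ctsh were -2.31, -0.15, -0.48 and -0.74. Its log2 fold change was -0.83 (standard error 0.33, edgeR adjusted p = 0.328, unadjusted p = 0.0331) and -0.90 with the replicate block (standard error 0.34, edgeR adjusted p = 0.219), neither of which passed. Mouse 57 decided the size: without it the unblocked log2 fold change was -0.49. In the same E-cadLO library the epithelial gene Epcam was also low (log2 ratio -2.21 within mouse 57, and -0.04, -0.64 and -0.73 in mice 58, 67 and 70), and the fibroblast markers were at their highest. The part of the cell makeup of that library in the Ctsh difference was not tested.

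Ctsb, at chromosome 14, 63122462 to 63145919, encodes cathepsin B, which acts both as an endopeptidase and as a carboxydipeptidase. Its level was 1569, 1245, 1327 and 1530 CPM in E-cadHI and 848, 1037, 1329 and 1659 CPM in E-cadLO cells. The E-cadLO libraries spanned a 1.96-fold range against 1.26-fold for E-cadHI, and the within-mouse log2 ratio ran from -0.89 in mouse 57 to 0.12 in mouse 70. The log2 fold change was -0.22 (standard error 0.23, edgeR adjusted p = 0.65).

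Ctsz, at chromosome 2, 174427493 to 174439039, encodes the carboxypeptidase cathepsin Z, which carries an integrin-binding motif in its propeptide. It was at 440 to 609 CPM in E-cadHI and 480 to 574 CPM in E-cadLO cells, and its log2 fold change was 0.00 in size (standard error 0.16, edgeR adjusted p = 0.997). Mouse 67 alone was higher in E-cadLO cells, with a log2 ratio of 0.38.

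Ctsc, at chromosome 7, 88278085 to 88310888, encodes the dipeptidyl peptidase cathepsin C, which activates the serine proteases of leukocyte granules. Its level was 255 to 361 CPM in E-cadHI and 222 to 443 CPM in E-cadLO cells, and the log2 fold change was 0.15 (standard error 0.22, edgeR adjusted p = 0.758). It was higher in E-cadLO cells in 3 of 4 mice, and mouse 58 went the other way with a log2 ratio of -0.20.

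The remaining members belong to other catalytic classes. Ctsd, at chromosome 7, 142375911 to 142388038, encodes the aspartic protease cathepsin D. It was at 1178, 1112, 1093 and 1297 CPM in E-cadHI and 1389, 1384, 1011 and 1081 CPM in E-cadLO cells of mice 57, 58, 67 and 70. Mice 57 and 58 were higher and mice 67 and 70 lower in E-cadLO cells, the same split of the mice as for Ctsl, and the log2 fold change was 0.06 (standard error 0.18, edgeR adjusted p = 0.892).

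Ctsa, at chromosome 2, 164832873 to 164841032, encodes the serine carboxypeptidase cathepsin A, which also protects beta-galactosidase and neuraminidase in a complex. It was at 277 to 401 CPM in E-cadHI and 273 to 341 CPM in E-cadLO cells (log2 fold change -0.07, standard error 0.16, edgeR adjusted p = 0.845). Whether counting used strand is not stated in the sources used here. Ctsa, Ctsb, Ctsc and Ctsz each overlap a gene on the opposite strand, among them Pltp for Ctsa, Fdft1 for Ctsb and Nelfcd for Ctsz. Ctsd overlaps Gm49369 on its own strand, as Ctss does Hmgb1-ps5. Reads in the shared stretches cannot be assigned with certainty.

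**Figure D3:**
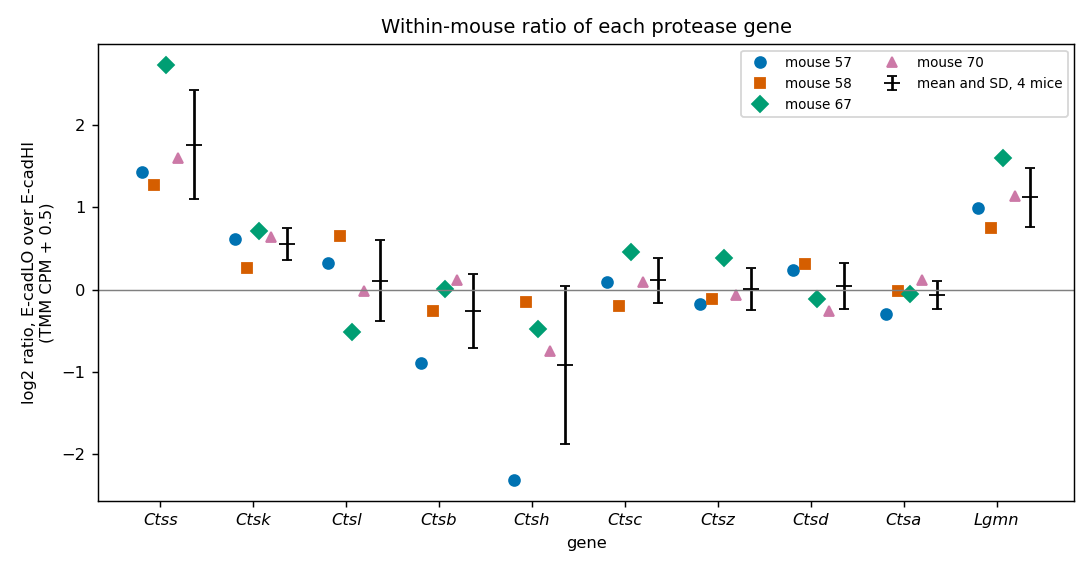
Log2 ratio of E-cadLO over E-cadHI within each mouse (CPM plus 0.5) for the 10 genes, a symbol per mouse, with the mean and SD over 4 mice beside them. Ctss (mean 1.76), Lgmn (1.12) and Ctsk have all 4 mice above 0, Ctsh all 4 below 0 with mouse 57 at -2.31, and the other genes have mice on both sides.

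To compare genes with each other, levels were divided by the length of the principal transcript (RPKM, which is CPM per kilobase of transcript). In E-cadHI cells the mean level was highest for Ctsd (550 ± 43.3 RPKM, SD, n = 4), followed by Ctsz (370 ± 49.6) and Ctsb (299 ± 33.0), whose ranges overlapped. Ctsc, Ctsh, Ctsa and Ctsl came next with means of 126, 126, 91.6 and 82.5 RPKM and partly overlapping ranges, then Lgmn (52.1 ± 23.2 RPKM) and Ctss (50.1 ± 51.8 RPKM), with Ctsk last at 0.976 RPKM. In E-cadLO cells Ctsd (572 ± 93.4 RPKM), Ctsz (370 ± 27.0 RPKM) and Ctsb (257 ± 74.7 RPKM) again led.

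Ctss came next in E-cadLO cells (187.5 ± 174.5 RPKM), but its 4 libraries ran from 14.2 to 377 RPKM and overlapped those of every gene other than Ctsd and Ctsk. Ctsc (139 RPKM), Lgmn (118 RPKM), Ctsl (93.3 RPKM), Ctsa (87.2 RPKM) and Ctsh (70.9 RPKM) followed, with overlapping ranges between neighbors, and Ctsk was last at 1.62 RPKM. With the length of all exons of a gene in place of the principal transcript, an alternative added after the data were seen, the first 3 places in both groups, the place of Ctss after them in E-cadLO cells and the last place of Ctsk were kept, while Ctsl changed most, to a mean of 25.1 RPKM in E-cadHI and 28.3 RPKM in E-cadLO cells.

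The sum over the 10 genes differed less than its makeup. Summed RPKM were 1844, 1552, 1629 and 1964 in E-cadHI and 1683, 1690, 2012 and 2199 in E-cadLO cells of mice 57, 58, 67 and 70, lower in E-cadLO cells in mouse 57 and higher in the others. Ctss made up 0.273%, 1.78%, 2.67% and 6.32% of the sum in E-cadHI and 0.841%, 3.98%, 14.5% and 17.2% in E-cadLO cells. The share of Lgmn was 2.2% to 4.38% in E-cadHI and 3.44% to 8.61% in E-cadLO cells. Ctsh made up 5.87% to 8.59% in E-cadHI and 1.82% to 4.99% in E-cadLO cells. A share also depends on the other genes of the sum, and the Ctsh levels themselves overlapped (91.1 to 153.6 RPKM in E-cadHI, 30.65 to 100.3 RPKM in E-cadLO). The share of Ctsd in E-cadLO cells was 38.8% and 38.5% in mice 57 and 58 but 23.6% and 23.1% in mice 67 and 70, against 30.0% to 33.7% in E-cadHI cells.

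**Figure D4:**
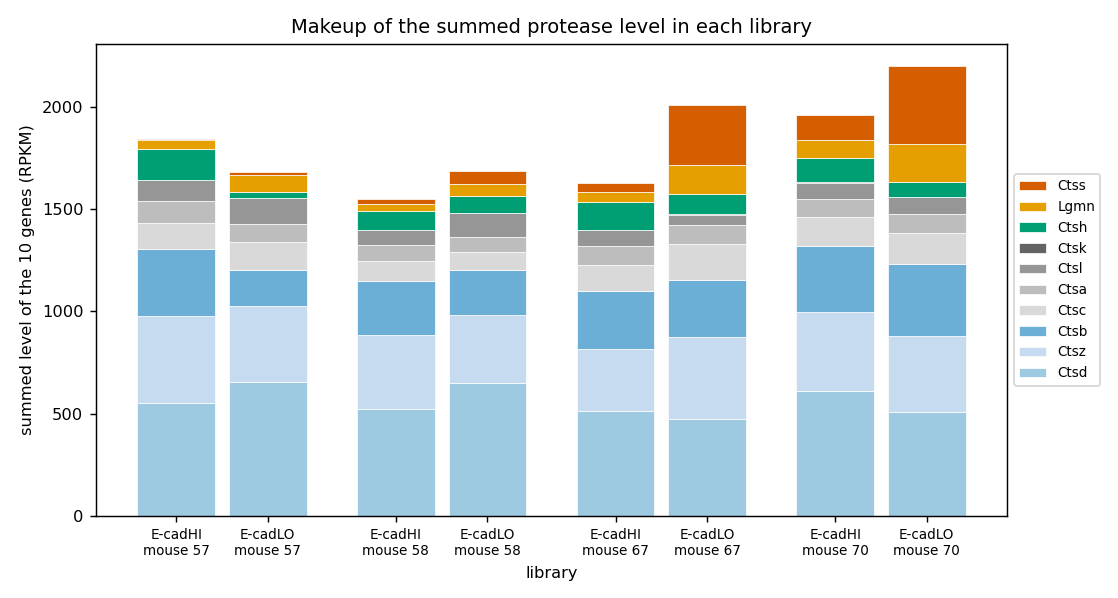
Summed level of the 10 genes in RPKM for each library, stacked by gene, with the E-cadHI and E-cadLO bars of a mouse side by side. Ctsd, Ctsz and Ctsb form most of every bar, and the Ctss segment is tallest in the E-cadLO libraries of mice 67 and 70, at 14.5% and 17.2% of the sum.

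Other genes of the pathway were read from lists written by hand. Of 13 further cathepsin genes in the table, mostly placental ones, 4 were tested, with a median log2 fold change of 1.96, and none passed in the edgeR fit without or with the replicate block. Ctsf, a lysosomal cysteine protease, was at 0 to 9.75 CPM in E-cadHI and 2.02 to 41.9 CPM in E-cadLO cells and higher in 4 of 4 mice (log2 fold change 2.27, edgeR adjusted p = 0.469). Ctso was also higher in 4 of 4 mice (log2 fold change 0.72), while Ctsw of cytotoxic lymphocytes (2.94, at most 3.63 CPM) and Ctse (1.65, at most 8.01 CPM) were each higher in 3. Cts3 was at 0 in every library.

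The cystatins and stefins inhibit the cysteine cathepsins. Only 3 of 13 in the table had enough counts, with a median log2 fold change of 1.16, and none passed. Cst3, which encodes the secreted inhibitor cystatin C, was at 246 to 1523 CPM in E-cadHI and 375 to 3788 CPM in E-cadLO cells and higher in 4 of 4 mice, with a log2 fold change of 1.16 (edgeR adjusted p = 0.526, and 0.116 with the replicate block). Cst6 was higher in 4 of 4 mice at 0.845 to 1.46 CPM in E-cadHI and 2.67 to 3.64 CPM in E-cadLO cells. It had only 11 to 49 counts per library and did not pass (edgeR adjusted p = 0.289, and 0.195 with the replicate block). The cytosolic inhibitor Cstb had a log2 fold change near 0 (-0.01, standard error 0.17).

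The lists of other hydrolases, of membrane and proton pump genes and of sorting genes were centred near 0. The median log2 fold change was 0.02 over 36 other lysosomal hydrolases, 0.01 over 24 genes of the lysosomal membrane and proton pump, and 0.02 over 13 tested genes of enzyme sorting and the TFEB family, against 0.10 over the 10 proteases and 0.07 over all genes tested. In the edgeR fit without the block none of these genes passed, and with the replicate block none of the 24 membrane and proton pump genes or the 13 sorting and TFEB family genes did.

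The genes named here from these lists by the size of their fold change did not pass. Arsa (log2 fold change 1.60) and the chloride transporter Clcn7 (1.25) were higher in E-cadLO cells in 4 of 4 mice and Scarb2 (0.72), the receptor of glucocerebrosidase, in 3. Lipa (-0.83), the acid lipase, Acp5 (-0.62) and the proton pump subunits Atp6v0e (-0.53) and Atp6v1g1 (-0.45) were lower in 4 of 4 mice. The mannose 6-phosphate receptors M6pr (-0.33) and Igf2r (-0.39), which carry the precursors of the proteases, were lower in E-cadLO cells in 4 of 4 mice, and the regulators Tfe3 (0.60) and Mitf (0.74) were higher in 2 of 4.

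The same fits were read for markers of brain, immune and stromal cells. With the replicate block, in which 0.728% of all genes passed as higher, 4 of 20 microglia and macrophage markers, 3 of 10 astrocyte markers (Gfap, Slc1a3 and S100b), 2 of 10 oligodendrocyte markers (Mbp and Mobp) and 2 of 9 tested neuron markers (Snap25 and Eno2) passed as higher in E-cadLO cells, and none of the 9 tested endothelial, 8 tested fibroblast or 10 epithelial markers did. These calls also rested on the mice used, since without mouse 67 the blocked fit passed 0 genes of the whole table and without mouse 70 it passed 2. Median log2 fold changes without the block were 2.07 for microglia and macrophages, 1.68 for astrocytes, 1.92 for oligodendrocytes, 1.94 for neurons, 1.27 for endothelium, 5.62 for fibroblasts and -0.17 for the epithelial list. Summed levels over the list were 1152 to 3641 CPM in E-cadHI and 731 to 10130 CPM in E-cadLO libraries for astrocytes, 4.53 to 98.8 CPM and 31.2 to 401 CPM for neurons, and 42.7 to 78.6 CPM and 64.6 to 116 CPM for endothelium. The part of these cells in the differences of the proteases was not tested.

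**Figure D5:**
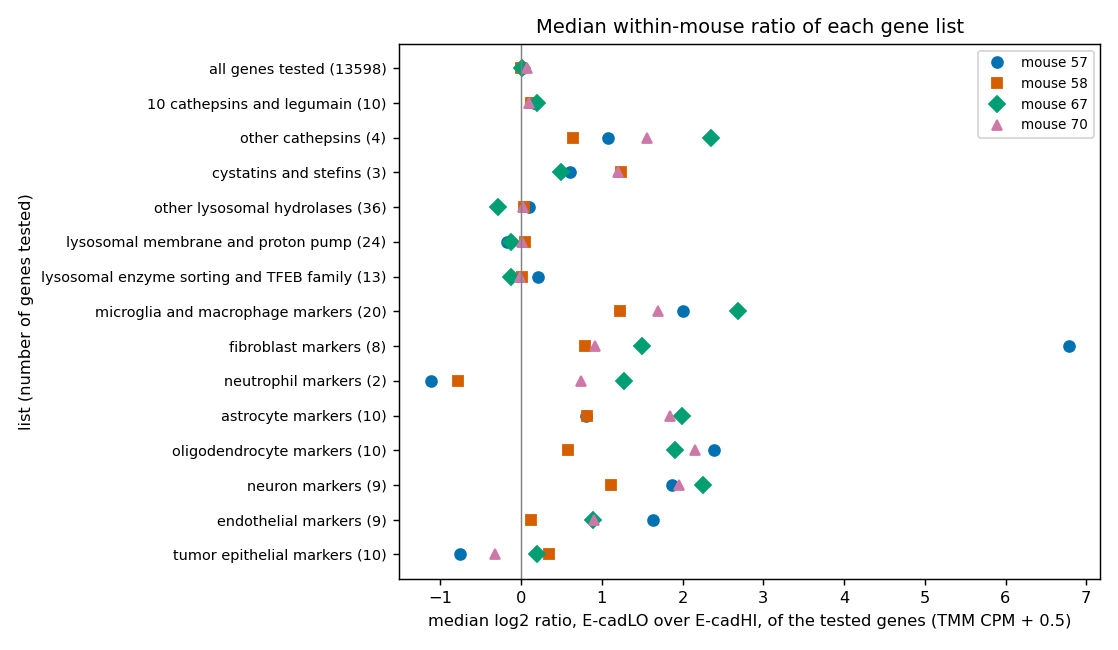
Median log2 ratio of E-cadLO over E-cadHI within each mouse over the tested genes of each list, with the number of genes tested beside the list's name and a symbol per mouse. The 10 proteases, the other lysosomal hydrolases, the membrane and proton pump genes and the sorting genes lie near 0, as all genes do, while the 4 other cathepsins lie between 0.64 and 2.35, the microglia and macrophage list lies between 1.22 and 2.69, and the fibroblast list reaches 6.78 in mouse 57.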

How the data were processed

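E-cadHI and E-cadLO cells of 4 mice gave 8 bulk mRNA libraries (Illumina TruSeq, single reads). The authors mapped the reads with HISAT2 2.1.0 to GRCm38 and deposited raw counts per gene, made with Icount per the methods and with HTSeq per the submitters' processing notes; whether strand was used is not given in the sources used here. All 8 count columns were used. The 365 of 32259 lines that name no gene (0.0636% to 0.0954% of counts) were left out.

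Counts were scaled with TMM and tested with edgeR 4.0.16 (R 4.3.3; filterByExpr by group, quasi-likelihood test, Benjamini-Hochberg adjustment over 13598 genes, threshold 0.05). The main fit has no block, since the methods name DESeq2 and no pairing. By the labels, E-cadHI and E-cadLO libraries with the same number come from the same animal, and their deviations from the group means correlated (0.248 to 0.692, at most 0.144 between mice), so a fit with a replicate block for the mouse is printed where it changes a call. Ratios within a mouse used CPM plus 0.5, with no test, since 4 pairs are too few for an exact test to pass. RPKM used the best-graded principal transcript in GENCODE M21, taking one inside the gene as counted where there was a choice (Ctsl). Of the 31894 genes, 31719 were found there by identifier. Promoters are from RefSeq. No pair of libraries agreed within sampling noise. The fit was tested on simulated data. Alternatives were DESeq2 1.42.0 with and without the block, other scalings, filters, a robust fit, other pseudocounts and each mouse left out.

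The 10 genes and the other lists were chosen with earlier results of these data known. Named are all members, and of the other lists the genes past the threshold without or with the block, the 2 largest and 2 smallest fold changes, markers at 0 throughout, and the 5 genes most correlated with Ctss. A result of the list of other lysosomal hydrolases is not reported here. Python 3.11.15, pandas 2.3.3 and matplotlib 3.10.9 made the tables and plots.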

Additional observations from a re-analysis of the deposited data

Results flagged for a closer look

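Of 33 groups of 4 values examined for a value far from the rest, 2 held one, where chance gives about 1 in 20, or 1.65 of 33. Both were of Ctsk and of mouse 70: its E-cadHI library was at 3.60 CPM against 0.558, 1.08 and 0.669 CPM in the other mice, and its E-cadLO library at 5.87 CPM against 1.11, 1.4 and 1.41 CPM. The Ctsk values of mouse 70 rest on 41 and 84 counts, and the same mouse had the highest levels of Ctss and Lgmn and of the oligodendrocyte markers in both populations.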

How the results depend on the processing

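Of 129 log2 fold changes of the 10 genes over 13 alternative fits, 113 kept their direction and their side of the threshold, 4 became calls (Ctss and Lgmn in edgeR and in DESeq2, each with the replicate block) and 12 changed sign, all of Ctsz or Ctsd near 0. The number of members passing as higher was 0 in the reported fit and 2 with the replicate block in edgeR or in DESeq2, and 0 to 2 when a mouse was left out of the blocked edgeR fit. Over the alternatives, the adjusted p of Ctss ran from 7.88e-09 to 0.736 and that of Lgmn from 2.38e-06 to 0.68. The log2 fold change of Ctsz was -0.001 and became 0.005 with the replicate block, 0.015 in DESeq2, 0.022 in DESeq2 with the block, 0.021 with DESeq2's size factors, 0.065 with library totals, 0.013 without Gm42418, 0.041 with at least 10 counts in every library, and -0.108 to 0.05 with a mouse left out. That of Ctsd was 0.056 and ran from -0.031 to 0.174 with a mouse left out. Members higher in every mouse numbered 3, and 3 to 4 with a mouse left out (Ctsc joined without mouse 58). Members lower in every mouse numbered 1, and 1 to 2 with a mouse left out (Ctsz joined Ctsh without mouse 67, Ctsa without mouse 70). Over all genes, 0 passed in the reported fit, and genes passing as higher numbered 99 with the replicate block (0 to 425 with a mouse left out of it), 376 in DESeq2, 1010 in DESeq2 with the block, 23 without a filter and 3 with at least 10 counts in every library. Genes passing as lower numbered 40 in DESeq2 and 201 in DESeq2 with the block. The cause of these differences was not tested. A minimum of 10 counts in every library left Ctsk untested. The number of mice limits all tests, and for Ctsk the depth does as well.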

Other observations

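Few of the genes tied to cathepsin C in leukocytes had enough counts to be tested. Of 9 listed genes of leukocyte granules in the table, 1 was tested. The list was meant for proteases that cathepsin C is known to activate, but it also held Mpo, which encodes a peroxidase. The tested gene, Prtn3, encodes proteinase 3 of neutrophil granules. It was at 45.3 to 55.02 CPM in E-cadHI and 6.54 to 38.8 CPM in E-cadLO libraries, lower in E-cadLO cells in 4 of 4 mice (log2 fold change -1.08, standard error 0.46, edgeR adjusted p = 0.343). Only 2 of 10 neutrophil markers were tested, S100a8 (log2 fold change -1.03) and Csf3r (2.09), with a median of 0.53, and none of 10 T and NK cell markers had enough counts. The summed level of the T and NK cell markers was 0.0697 to 3.25 CPM in E-cadHI and 1.63 to 33.5 CPM in E-cadLO libraries, highest in mouse 70.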
